A study of Mus musculus with 2 samples.

Results

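Sulfate, citrate, oxalate and lactate are filtered by the kidney and taken back from the tubule fluid, or secreted into it, by sodium-coupled transporters and anion exchangers. The genes described here are 7 such transporters, out of 21938 protein-coding genes: Slc13a1, Slc13a2, Slc13a3, Slc26a1, Slc26a6, Slc5a8 and Slc5a12. They are a list of names grouped by function, chosen with earlier results of these data known. The rule that picks them uses no measured value. All 7 had an accessible promoter in both libraries, against 65.3% of all protein-coding genes. Their promoter peaks were mostly low beside those of all open genes, a comparison made without regard to CpG content. At 4 of the 7 the highest accessible site away from any transcription start site (TSS) stood above the gene's own promoter in both libraries, a count taken after the values were seen. The share was 22.1% over all genes with an open promoter, and 53.6% over those whose promoters are poorest in CpG, as are 3 of these 4 genes.

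The data are DNase-seq, which maps accessible chromatin from the places where the enzyme DNase I cuts the DNA of nuclei. The tissue was whole kidney of male mice aged 25 days of the hybrid strain B6CASTF1/J, the first-generation cross between C57BL/6J and CAST/EiJ. The series is 1 group of 2 libraries with no treatment, mutant or control, so values were described in each library and no test between conditions was possible. The labels give the libraries separate biosamples and animal numbers under 1 donor code, and they were read here as 2 animals. Because the tissue is bulk, a site open in fewer cells and a site less open in each cell cannot be told apart.

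Most of the uptake takes place in the proximal tubule, the segment that follows the glomerular filter. Slc13a1 is the sodium-sulfate cotransporter of the apical membrane, and Slc26a1 is the basolateral exchanger that passes sulfate on in exchange for other anions. Slc13a2 and Slc13a3 are sodium-dicarboxylate cotransporters, the first apical and the second basolateral, that carry citrate, succinate and related acids of the citrate cycle. Slc26a6 is an apical anion exchanger that moves chloride, oxalate and bicarbonate. Slc5a8 and Slc5a12 are sodium-coupled monocarboxylate transporters that reclaim lactate, Slc5a8 with high and Slc5a12 with low affinity.

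Replicate 1 had 125393 peaks and 237471 footprints, and replicate 2 had 177001 peaks and 493495 footprints. Footprints are short stretches within accessible DNA where cutting is locally reduced. Peak height is in the authors' own unit, and its smallest step was 1.72 times coarser in replicate 1, as it would be if heights were divided by depth and replicate 2 were the deeper. Absolute depth is unknown. The tissue label was checked on promoters of marker genes: peaks were present in both libraries at 6 of 6 proximal tubule genes, 2 of 2 of the loop of Henle, 4 of 5 of the distal nephron and collecting duct, 2 of 3 of podocytes and 2 of 2 of endothelium. They were present at 1 of 5 genes of other organs, Ins2, and at 0 of 2 leukocyte genes, Ptprc and Cd79a. Counts of this size near 65.3%, the share of all genes, say little of the tissue. In replicate 1 the peaks of Ins2 and of the endothelial gene Pecam1 lay 43861 and 35377 bp from the 5′ end, each near another TSS of its gene.

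The sequences below are those of the highest sites away from promoters at the 3 Slc13 genes, and of another intron site of Slc13a3, shown because these sites stood above the promoters. Each reads 5′ to 3′ in the direction of its gene, on mm10, and capitals mark the bases that lay under footprints of both libraries. The first lies 4.87 kb upstream of Slc13a1 (chr6:24172881-24173040), and the others lie in introns of Slc13a2 (chr11:78416921-78417100) and Slc13a3 (chr2:165459721-165459900 and chr2:165468161-165468360), all on the minus strand.

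Slc13a1 upstream site: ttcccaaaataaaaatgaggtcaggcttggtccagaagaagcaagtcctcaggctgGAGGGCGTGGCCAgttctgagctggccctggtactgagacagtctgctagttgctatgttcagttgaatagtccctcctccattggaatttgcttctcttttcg
Slc13a2 intron site: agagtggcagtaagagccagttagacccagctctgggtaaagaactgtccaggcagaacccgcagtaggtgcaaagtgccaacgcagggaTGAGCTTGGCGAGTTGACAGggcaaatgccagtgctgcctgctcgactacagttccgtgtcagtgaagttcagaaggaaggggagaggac
Slc13a3 intron site: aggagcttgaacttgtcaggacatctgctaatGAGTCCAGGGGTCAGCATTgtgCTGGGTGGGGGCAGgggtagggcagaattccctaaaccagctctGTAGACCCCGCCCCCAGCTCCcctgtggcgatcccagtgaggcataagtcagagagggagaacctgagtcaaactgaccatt
Slc13a3 second intron site: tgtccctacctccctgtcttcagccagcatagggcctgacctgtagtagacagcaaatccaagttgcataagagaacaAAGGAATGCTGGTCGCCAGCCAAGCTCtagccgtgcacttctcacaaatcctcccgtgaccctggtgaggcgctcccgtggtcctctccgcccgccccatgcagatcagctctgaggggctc

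Further stretches are shown for the letters of motifs searched in them. The capitals in the Slc13a2 window (chr11:78412683-78412783) mark the only match to the HNF4 motif CAAAGTCCA among the peaks of the 7 loci. HNF4 is a nuclear receptor family of kidney and liver epithelium. In the parts of the Slc5a8 promoter peak (chr10:88885761-88885991, plus strand) and the Slc13a3 promoter peak (chr2:165473231-165473320, minus strand) that lie upstream of the TSS, capitals mark the SP/KLF motif GGGCGG, which reads CCGCCC where it lies on the other strand.

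Slc13a2 HNF4 match: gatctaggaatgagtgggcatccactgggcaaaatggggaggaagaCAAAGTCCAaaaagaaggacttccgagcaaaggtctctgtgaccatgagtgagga
Slc5a8 promoter: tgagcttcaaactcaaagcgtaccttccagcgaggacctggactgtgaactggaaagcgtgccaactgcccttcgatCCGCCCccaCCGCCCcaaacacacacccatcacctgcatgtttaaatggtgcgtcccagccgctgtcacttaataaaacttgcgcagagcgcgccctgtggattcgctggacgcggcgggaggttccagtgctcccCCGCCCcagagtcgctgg
Slc13a3 promoter: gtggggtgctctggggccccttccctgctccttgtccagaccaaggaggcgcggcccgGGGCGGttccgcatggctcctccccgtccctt

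A promoter peak was a peak within 500 bp of any TSS that GENCODE M21 basic gives the gene, and its height that of the highest such peak. A locus was the gene body with 10 kb on each side. A promoter peak was present in both libraries at 7 of 7 genes, against 65.3% of all protein-coding genes (66.2% in replicate 1 and 68% in replicate 2 taken alone). Of the genes, 4 have promoters poor in CpG, a class in which few genes were open. Sorted into 10 classes by the ratio of observed to expected CpG, Slc26a1 (0.170) and Slc5a12 (0.134) fell in class 2, where 11.5% of genes had a promoter peak in both libraries. Slc13a1 (0.218) and Slc13a2 (0.216) fell in class 3, with 23.5%. Slc13a3 (0.537) and Slc26a6 (0.526) fell in class 5, with 81.5%, and Slc5a8 (0.777) in class 8, with 96.4%. The median ratio was 0.218 over the 7 genes and 0.606 over all genes.

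**Figure D1:**
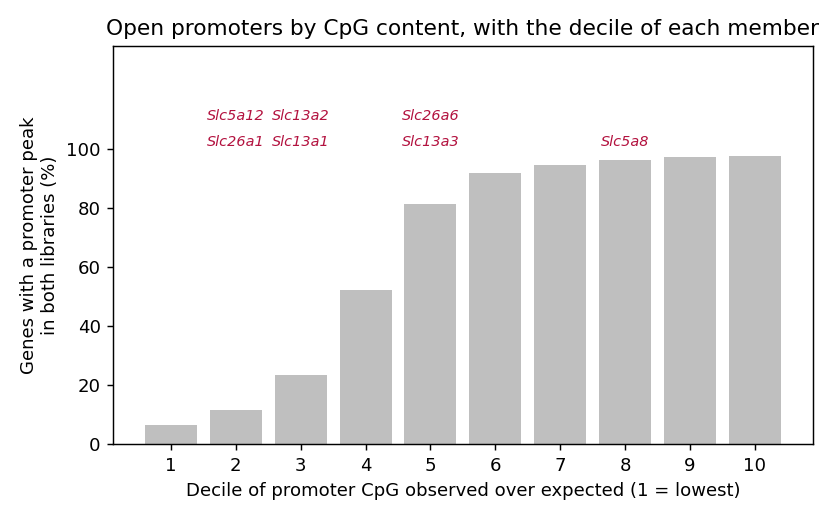
Share of protein-coding genes with a promoter peak in both libraries (vertical axis, %) in each class of promoter CpG observed over expected (horizontal axis, 1 = lowest), with the class of each of the 7 genes written above the bars. Slc26a1, Slc5a12, Slc13a1 and Slc13a2 stand over bars of 11.5% and 23.5%, while Slc5a8 stands over a bar of 96.4%.

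Promoter heights ranged over the genes from 0.718 to 7.23 in replicate 1 and from 0.775 to 8.75 in replicate 2. Their medians were 2.79 and 2.68, and those of all genes with a promoter peak were 7.36 and 6.63. Of the 14329 genes open in both libraries, 10483 fell in CpG classes 6 to 10, as did Slc5a8 alone of the 7. Heights were not compared within CpG classes. Slc26a6 was the highest of the 7 in both libraries and Slc13a1 the lowest. Between them the order was not settled: Slc13a2, Slc5a8, Slc13a3 and Slc26a1 changed places between the libraries, and Slc5a12 (1.15) lay just under Slc13a3 (1.17) in replicate 2. The 6 proximal tubule markers had promoter heights of the same order, from 1.33 (Slc5a2, a glucose transporter) to 6.93 (Lrp2, the endocytic receptor megalin) in replicate 1, and from 0.939 to 5.44 in replicate 2. This range is not particular to the proximal tubule. Markers of the other kidney cell types reached 6.07 and 5.45 (Scnn1g), and Aqp2 and Nphs1 had no promoter peak in replicate 1.

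**Figure D2:**
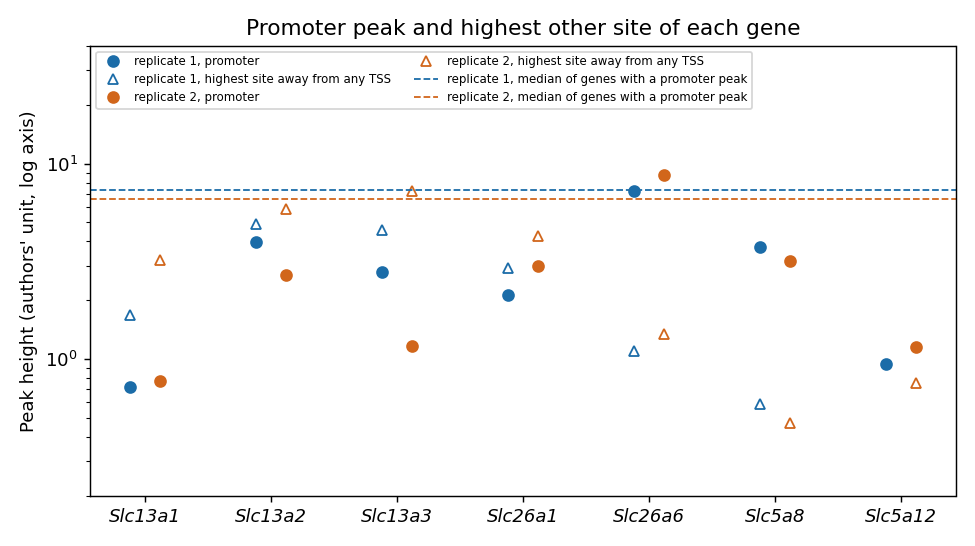
Peak height (vertical axis, log scale, the authors' unit) of the promoter (filled circles) and of the highest site away from any TSS in the locus (open triangles) for each gene, in replicate 1 (blue) and replicate 2 (orange). Dashed lines are the medians over all genes with a promoter peak, 7.36 and 6.63. Triangles lie above circles at Slc13a1, Slc13a2, Slc13a3 and Slc26a1 and below them at Slc26a6 and Slc5a8, and Slc5a12 has a triangle in replicate 2 alone.

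Among the sulfate transporters, Slc13a1 (ENSMUSG00000029700.11, chr6:24088283-24168092, minus strand) had a promoter peak of 0.718 in replicate 1 and 0.775 in replicate 2. These heights stood at percentiles 7.97 and 11.5 of all genes with a promoter peak. The site 4.87 kb upstream, whose sequence is given above, measured 1.68 and 3.21, or 2.33 and 4.14 times the promoter. It stood at percentiles 78.3 and 91.0 of all peaks away from any TSS (98734 and 146335 peaks). Its 13 bases under a footprint in replicate 1 lay wholly within the 88 footprint bases of replicate 2. The other 3 sites of the locus were intronic, at 1.09, 2.66 and 12.96 kb from the TSS, and none exceeded 0.954 in either library. All 5 sites of this 99.8 kb locus recurred in both libraries.

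Slc26a1 (ENSMUSG00000046959.16, chr5:108669878-108675569, minus strand) lies wholly inside Idua, the lysosomal alpha-L-iduronidase gene on the plus strand, and next to Dgkq, a diacylglycerol kinase gene. Reads at these sites cannot be assigned to one of the overlapping genes. Its highest promoter peak (2.13 and 2.996) lay at an internal TSS (108674753), and a second one near the 5′ TSS (108675569) measured 1.75 and 2.21. Another promoter peak, 64 bp upstream, was called in replicate 1 alone at 1.15, although replicate 2 had bases with a false discovery rate down to 3.91e-06 there. The highest site away from promoters (chr5:108670901-108671080) lay in an exon. All its bases were annotated as UTR, counted without telling the overlapping genes apart. This site measured 2.93 and 4.24, or 1.38 and 1.42 times the promoter. Sites 2.20 kb (1.92 and 2.01) and 2.87 kb (1.73 and 1.45) upstream followed. The latter overlaps the 5′ end of the RefSeq model, 2811 bp upstream of the first GENCODE basic TSS, and 51% of its bases are masked as repeats. The highest peaks of the locus belonged to other promoters: sites at Idua and Dgkq measured 10.3 and 12.8, and 6.26 and 8.66. A lower site there measured 1.79 and 1.19.

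Among the dicarboxylate transporters, Slc13a2 (ENSMUSG00000001095.5, chr11:78397087-78422217, minus strand) had 13 and 14 peaks in its 45.1 kb locus. Its promoter peak at the TSS measured 3.97 in replicate 1 and 2.68 in replicate 2, and an adjoining one 364 bp upstream 1.82 and 2.54. The intron site 5.21 kb downstream of the TSS measured 4.90 and 5.83, which was 1.23 and 2.18 times the promoter and at percentiles 95.4 and 96.7 of peaks away from TSSs. Toward the 3′ end an intron site (chr11:78399801-78399980) measured 3.07 and 3.53, and a site in the last exon (chr11:78397541-78397720, 150 of 180 bases UTR) measured 2.66 and 2.92. Both lie within the antisense gene Slc13a2os. Upstream lay 3 sites, at 2.33, 5.63 and 9.19 kb, with heights from 1.10 to 1.504 in replicate 1 and from 1.27 to 2.31 in replicate 2.

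Slc13a3 (ENSMUSG00000018459.15, chr2:165405028-165473230, minus strand) had the most sites, 20 in an 88.2 kb locus, 15 of them intronic. Its promoter differed most between the libraries, 2.79 in replicate 1 and 1.17 in replicate 2, a log2 ratio of -1.25. Over all 24716 shared peaks within 500 bp of a TSS the median log2 ratio was -0.04 with an SD of 0.46. The leading intron site, 13.4 kb into the gene, went the other way, from 4.598 to 7.23 (log2 0.65), and the site at 4.97 kb from 3.03 to 5.34 (log2 0.82). These intron sites stood at percentiles 94.8 and 97.9, and 89.7 and 96.1, of peaks away from TSSs. The leading one was thus 1.65 times the promoter in replicate 1 and 6.20 times in replicate 2. Another intron site, 65.1 kb from the TSS (chr2:165408021-165408200), measured 3.31 and 2.31.

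The oxalate and chloride exchanger Slc26a6 (ENSMUSG00000023259.16, chr9:108853283-108913049, plus strand) was the 1 gene of the 7 whose promoter was near the middle of all open promoters. It measured 7.23 and 8.75, percentiles 49.3 and 60.1, and an adjoining promoter site 554 bp downstream of the TSS measured 5.46 and 5.43. No site away from a TSS exceeded 1.34. The highest were one 6.46 kb upstream within the neighbouring gene Celsr3 (1.09 and 1.17), one 1.48 kb downstream (0.906 and 0.964), and one in a coding exon (chr9:108912421-108912600, 0.838 and 1.34). The site at 1.48 kb is intronic in the basic annotation but wholly UTR in a transcript of the full one. It and the exon site each lie within 500 bp of a transcript start that the basic annotation leaves out. This gene model spans a 50000 bp assembly gap (chr9:108862144-108912143) between its first 20 exons and its last, so 9.77 kb of its 59.8 kb is sequence. On the patch scaffold of GRCm38.p6 that corrects the region, the gene spans 10876 bp. No peak can be called in the gap, and densities over this locus depend on whether it is counted.

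Of the lactate transporters, Slc5a8 (ENSMUSG00000020062.7, chr10:88885992-88929515, plus strand) had a promoter peak of 3.73 and 3.17. It has the highest CpG ratio of the 7, and its heights stood at percentiles 30.8 and 31.1. Its best other site, in an intron 2.56 kb downstream, reached 0.590 and 0.472, or 0.158 and 0.149 times the promoter. Slc5a12 (ENSMUSG00000041644.14, chr2:110597298-110647779, plus strand) had 1 peak in the whole locus in replicate 1, its promoter at 0.940, which the stricter list holds as 2 peaks. In replicate 2 the promoter measured 1.15 and 4 intron sites from 0.204 to 0.755 were added, 3 of which are at least 50% masked as repeats. The promoter site of Slc5a12 also lies within 500 bp of the pseudogene Gm10794.

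**Figure D3:**
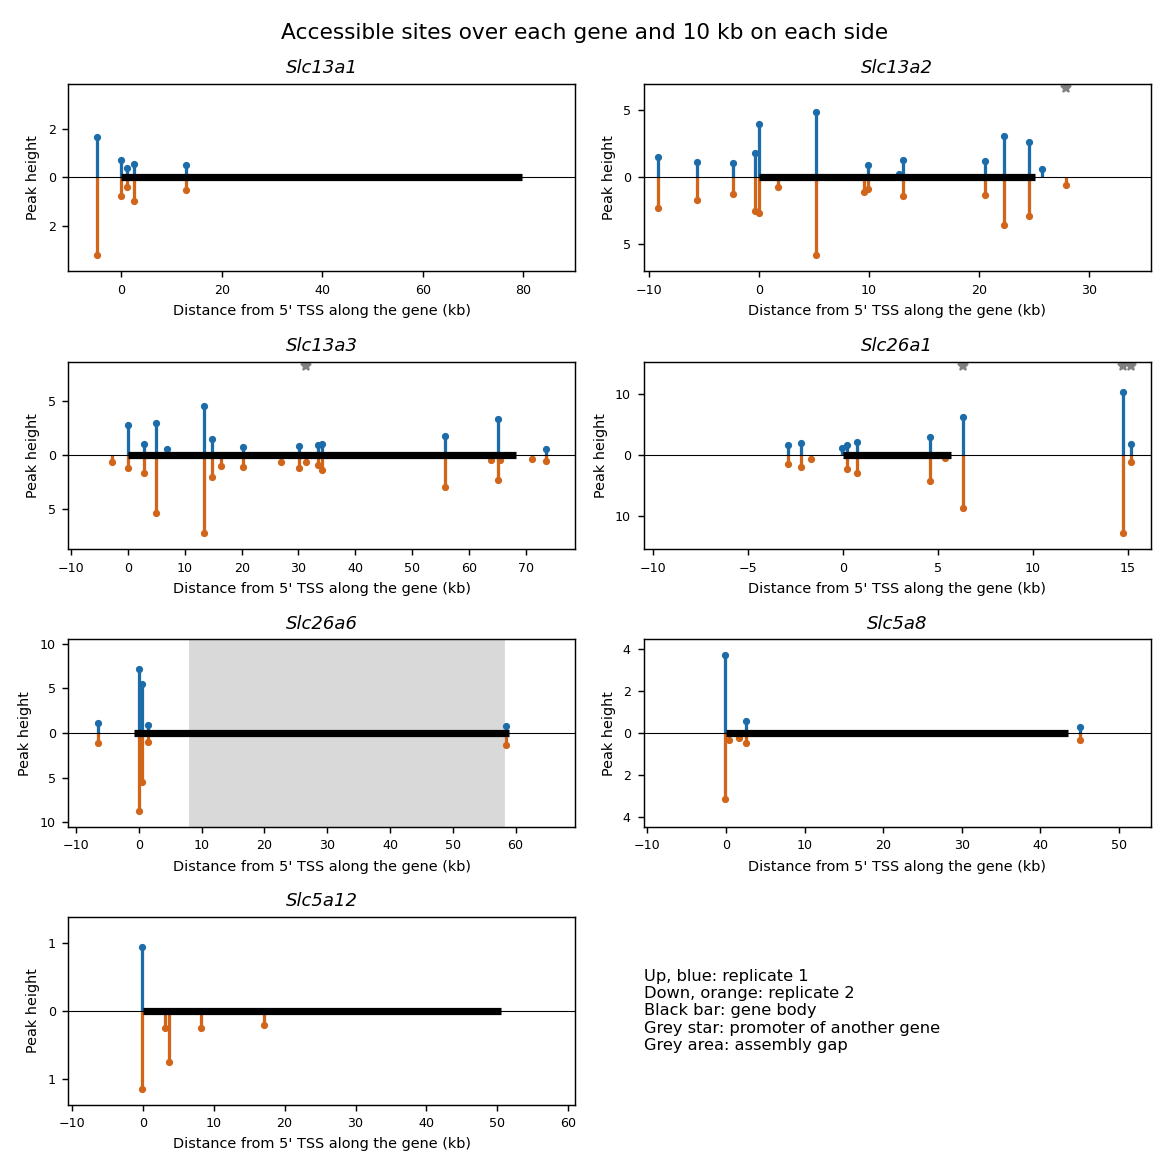
Heights of the accessible sites (vertical axis, the authors' unit, replicate 1 upward in blue and replicate 2 downward in orange) along each locus, by distance from the 5′ TSS in kb (horizontal axis). The black bar is the gene body, stars mark promoters of other genes and the grey area is the assembly gap. Sites are many at Slc13a2, Slc13a3 and Slc26a1, gathered at the 5′ end at Slc26a6, and few at Slc13a1, Slc5a8 and Slc5a12.

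A site away from every TSS stood above the gene's own promoter in both libraries at 4 of 7 genes, Slc13a1, Slc13a2, Slc13a3 and Slc26a1. The same held for 22.1% of the 14329 genes with a promoter peak in both libraries. The share varied with CpG: it was 53.6% in classes 1 to 3, 35% in classes 4 and 5 and 15.8% in classes 6 to 10. Of the 4 genes, 3 are in classes 2 and 3, where sites above the promoter were thus common among all open genes.

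Locus density separated the genes widely. Per kb of locus, as the mean of both libraries, it was 0.370 peaks at Slc26a1 (percentile 96.1 of all protein-coding genes), 0.299 at Slc13a2 (91.8) and 0.181 at Slc13a3 (74.8). It was 0.0630 at Slc5a8 (34.2), 0.0627 at Slc26a6 (34.1), 0.0501 at Slc13a1 (29.1) and 0.0426 at Slc5a12 (25.7). Thus 3 of 7 genes exceeded the median of all genes, and the median over the 7 was 0.0630 against 0.102. With assembly gaps left out of the length, a choice made after the data were seen, Slc26a6 rose to 0.168 (percentile 71.6). The median over the 7 then became 0.168 against 0.102, with Slc26a6 as the middle gene. The median also stood above that of all genes, with the gap counted, with 50 kb on each side (0.119 against 0.0975) and when the lower 50% of peaks by height were dropped (0.0564 against 0.0529). It stood below that of all genes with the stricter peak list (0.0627 against 0.0715), with the gene body alone (0.0689 against 0.0977) and with either library alone. Whether these loci are denser or sparser than others was therefore not settled.

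**Figure D4:**
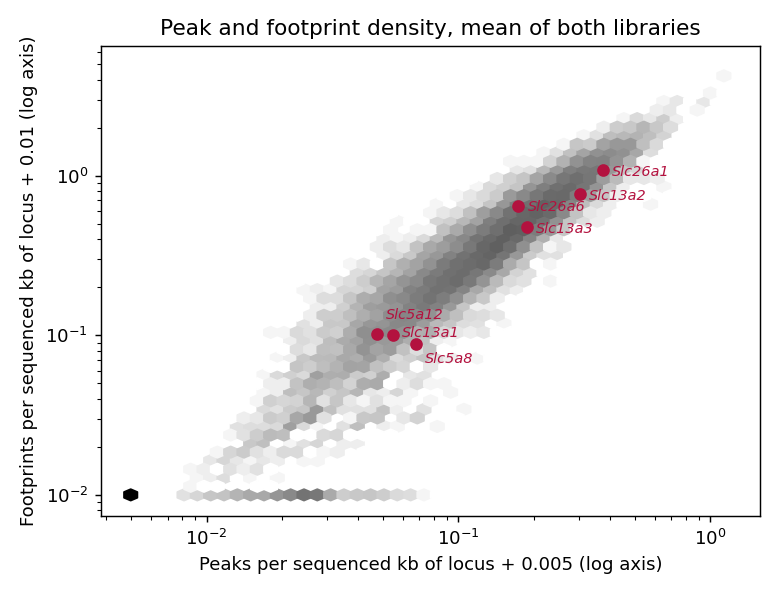
Footprints against peaks per sequenced kb of locus (both axes log scale, mean of both libraries, assembly gaps left out, 0.01 and 0.005 added) for all protein-coding genes (grey, darker where genes are denser) and the 7 genes (red). Slc26a1, Slc13a2, Slc13a3 and Slc26a6 lie in the upper right and Slc13a1, Slc5a8 and Slc5a12 form a group of low values.

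All 7 loci held footprints in both libraries, as did 80.6% of the loci of all protein-coding genes. Slc13a3 had 26 in replicate 1 and 56 in replicate 2, Slc13a2 had 20 and 48, and Slc26a1 had 18 and 37. Slc26a6 had 13 and 25, Slc13a1 5 and 13, Slc5a12 6 and 7, and Slc5a8 4 and 6. Genes with more peaks had more footprints, apart from Slc5a12, whose 6 footprints in replicate 1 all lay in its single promoter peak. Over the 7 loci 83.7% and 90.5% of peaks held a footprint, against 73.3% and 86.7% of all peaks. Each peak held a mean of 1.78 and 2.78 footprints, against 1.73 and 2.44. Their median width was 9 and 12 bp, and the longest measured 33 and 50 bp.

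How far the libraries shared sites differed by gene. Of 67 sites in the 7 loci, 45 were in both libraries, 4 in replicate 1 alone and 18 in replicate 2 alone. Of the 49 peaks of replicate 1, 91.8% overlapped a peak of replicate 2 (exact 95% binomial interval 80.4% to 97.7%, counting error only), against 87.6% of all peaks. The reverse share was 71.4% of 63 peaks against 62.2%. Sites found in replicate 2 alone were low, with a median height of 0.532 and none above 1.07, while the shared ones had a median of 1.63. All 5 sites of Slc13a1 and of Slc26a6 were shared, but 1 of 5 at Slc5a12. Of the 92 footprints of replicate 1, 72.8% (exact interval 62.6% to 81.6%, counting error only) overlapped one of replicate 2, against 77.2% of all footprints. Of the 192 of replicate 2, 31.3% did in turn, against 33.4%. By gene, the share in replicate 1 ran from 16.7% at Slc5a12 to 84.6% at Slc13a3. Both intervals treat peaks or footprints of the same locus as independent.

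Heights of shared sites away from promoters were higher in replicate 2 at 25 of 32 sites (78.1%, against 69.4% of all 85172 such peaks), with a median log2 ratio of 0.22 against 0.24. The Slc13a1 upstream site had the largest ratio of the 32, 0.94, where the SD over all such peaks was 0.49. The 10 shared promoter sites had a median log2 ratio of 0.19 and ranged from -1.25 at Slc13a3 to 0.49 at Slc26a1.

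**Figure D5:**
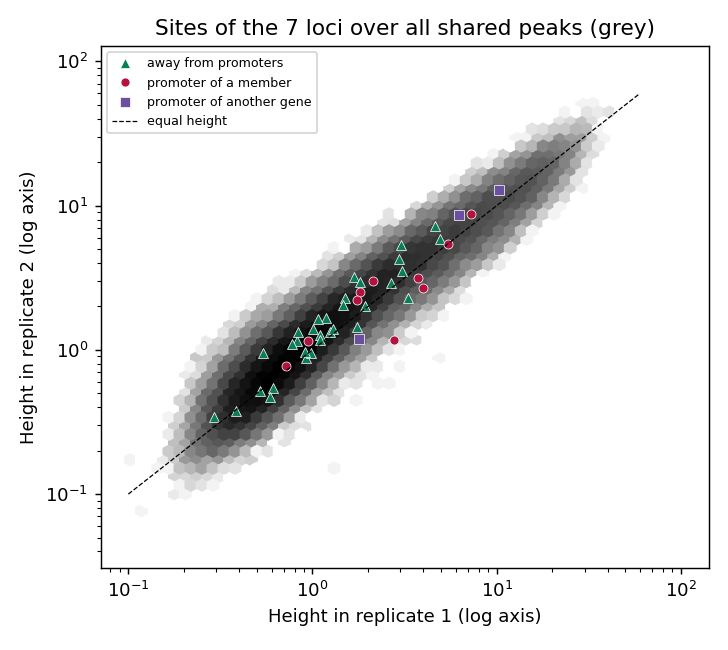
Height in replicate 2 against height in replicate 1 (both axes log scale, the authors' unit) for all shared peaks (grey, darker where denser) and those of the 7 loci by class. Most green triangles, the sites away from promoters, lie above the dashed line of equal height, and the red point farthest below it is the Slc13a3 promoter.

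Motif letters were searched on both strands, by exact match, in 150 bp at the centre of each peak. The HNF4 motif CAAAGTCCA was in 0 of 49 and 1 of 63 peaks of the loci, against 0.796% and 0.823% of all peaks. That match, shown above, lay in a Slc13a2 intron site called in replicate 2 alone (height 1.07) and under a footprint there (chr11:78412729-78412737). The SP/KLF motif GGGCGG was in 16.3% and 14.3% of peaks, against 16.9% and 14.0% of all. AP-1 letters (TGANTCA) were in 8.16% and 6.35%, against 4.95% and 5.26%. TEAD letters (GGAATG) were in 8.16% and 7.94%, against 9.41% and 9.88%, and NFY letters (CCAAT) in 8.16% and 11.1%, against 17.4% and 17.5%. CTCF letters were in 10.2% and 9.52%, against 14.4% and 12.9%. ETS letters were in 2.04% and 3.17%, against 3.19% and 2.68%, and GATA letters in 4.08% and 3.17%, against 3.84% and 4.35%. With 49 and 63 peaks these shares rest on few matches, 4 and 4 for AP-1. The HNF1, ERR, CREB and glucocorticoid receptor motifs and the direct repeats of nuclear receptors had no match in these windows. They are rare everywhere: the most common of them, CREB, was in 0.616% and 0.561% of all peaks. Their absence from 49 and 63 peaks therefore says little.

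Sites were also searched over their full length, and an overlap of 1 bp was enough to count a match as under a footprint. The printed Slc13a2 intron site held no match, and the Slc13a1 upstream site held CCAAT under a footprint of replicate 2. The Slc13a3 site at 13.4 kb held GGGCGG under footprints of both libraries and TGANTCA under one of replicate 2. Its second intron site held GGAATG under footprints of both. At the Slc13a3 promoter the GGGCGG lay under a footprint of replicate 2, while none of the 3 in the Slc5a8 promoter lay under a footprint. Among sites not printed, both promoter sites of Slc26a6 held GGGCGG under footprints of both libraries. The Slc13a2 intron site at 22.3 kb held a GATA motif (AGATAA) under footprints of both. Other unprinted sites also held matches under footprints of both libraries. CTCF letters did at the Slc13a2 promoter peak at the TSS and at its last-exon site. They also did at Slc13a3 sites 2.86 and 73.6 kb downstream of the TSS. ETS letters did at the coding-exon site of Slc26a6, and NFY letters at the Slc26a1 site 2.20 kb upstream. SP/KLF letters did at the highest Idua and Dgkq promoter site. Widened by 10 bp per side, 5.43% and 5.21% of the loci's footprints held SP/KLF letters, against 9.52% and 7.17% of all. CTCF letters were in 4.35% and 4.17%, against 6.01% and 4.27%, and NFY letters in 2.17% and 2.60%, against 4.58% and 4.56%. ETS was in 1.09% and 0.52%, against 1.14% and 0.87%, and TEAD in 1.09% and 1.04%, against 1.68% and 2.05%. GATA was in 2.17% and 0.52% (2 and 1 matches), against 0.48% and 0.72%. A match is a run of letters and does not show that a factor was bound.

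Genes that handle the same substrates were taken from lists chosen by function, with earlier results of these data known. Of 13 genes of sulfate uptake and use, 12 had a promoter peak in both libraries. The highest were Papss1 (25.9 and 39.5), which makes the activated sulfate donor, and the sulfate exchangers Slc26a2 (15.6 and 10.3) and Slc26a11 (9.59 and 11.7). Slc13a4, a sulfate cotransporter related to Slc13a1, had none. Of 13 genes of citrate and dicarboxylate handling, 12 had one. Among the highest were Acly, ATP citrate lyase (22.9 and 26.1), and Idh1, cytosolic isocitrate dehydrogenase (19.5 and 22.9, the peak of replicate 1 lying 7289 bp from the 5′ end). Slc22a8, an organic anion transporter, had none in either library, although its locus held 13 and 14 peaks.

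All 11 genes of lactate and monocarboxylate handling had a promoter peak in both libraries. They were led by Bsg, the partner protein of monocarboxylate transporters (19.4 and 18.2), and the lactate dehydrogenase genes Ldha (15.1 and 13.4) and Ldhb (8.89 and 10.03). The Ldha peaks lay 4316 and 4326 bp from the 5′ end. Any TSS of a gene counts, so these promoter peaks need not lie at its 5′ end. Of 9 genes of oxalate metabolism and the Slc26 family, 5 had one, among them Grhpr, glyoxylate reductase (8.78 and 4.72), Slc26a8 (1.48 and 0.959) and Slc26a7 (1.26 and 1.36). Among the 4 without one were the anion exchangers Slc26a3 and Slc26a9 and the liver enzyme Agxt, which converts glyoxylate to glycine. Of 11 other Slc5 genes, 7 had one, led by the vitamin transporter Slc5a6 (17.1 and 19.5) and the inositol transporters Slc5a3 (11.03 and 6.33) and Slc5a11 (6.27 and 3.47). Another had one in replicate 2 alone, and Slc5a4a, Slc5a4b and the iodide transporter Slc5a5 had none. Against the 65.3% of all genes, these shares are given as a description of the lists, which were not matched for CpG. Of the genes named without a peak, Slc13a4, Slc22a8, Slc26a3, Agxt and Slc5a4a were in CpG class 3. Slc26a9 and Slc5a4b were in class 2, but Slc5a5 was in class 8.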

How the data were processed

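The 2 DNase-seq libraries of kidney form 1 group. Per the labels' file descriptions, the authors called peaks in each library separately on mm10. The aligner and both callers were not given in the sources used here. Peak lists deposited by the authors give a signal (peak height), whose divisor is not stated. The longer of the deposited lists of each library was used, and the shorter, stricter one (80441 and 119139 peaks) served as an alternative. Footprints deposited by the authors carry a constant false discovery rate (q-value) of 0.01, read as a threshold. Deposited q-values per base are listed only below 0.05. B6CASTF1/J mice carry CAST/EiJ alleles, and how the alignment to mm10 treated their variants was not given in the sources used here.

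Peaks and footprints were assigned to GENCODE M21 basic genes in Python 3.11.15 with numpy 2.4.6 and scipy 1.17.1, by an overlap of at least 1 bp, with sequence from GRCm38.p6. The counting was tested on simulated data. Promoter CpG observed over expected was computed within 500 bp of each TSS. All members and up to 3 of their highest sites away from promoters in both libraries are named. Of each list, the 3 genes highest at the promoter and at most 3 lacking a promoter peak are named, except 1 gene that is not reported here. The genes, lists and motifs were chosen with earlier results of these data known.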

Additional observations from a re-analysis of the deposited data

How the results depend on the processing

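The count of 7 genes with a promoter peak in both libraries held with the stricter list, with promoters of 1 or 2 kb on either side and with either library alone. It was 6 with only the 5′ end of the gene model (Slc26a6, whose model starts 754 bp upstream of its basic TSS) and 6 with only the upper 50% of peaks by height (Slc13a1 in replicate 1). The median locus density of 0.0630 peaks per kb (all genes 0.102) became 0.119 with 50 kb on each side (all genes 0.0975) and 0.168 without assembly gaps (all genes 0.102), a setting added after seeing the data. It was 0.0564 with the upper 50% of peaks (all genes 0.0529) and 0.0401 for peaks more than 1 kb from every TSS (all genes 0.0510). The first 3 of these settings put the median of the 7 genes above that of all genes. The stricter list (0.0627 against 0.0715) and the gene body alone (0.0689 against 0.0977) put it below. So did replicate 1 alone (0.0627 against 0.0849) and replicate 2 alone (0.0787 against 0.117). The share of peaks of replicate 1 found in replicate 2 was 100% with the stricter list, for which no share over all peaks is given here. At 50% reciprocal overlap it was 83.7% (all peaks 78.3%). The share of footprints fell to 31.5% at 50% reciprocal overlap (all footprints 42.6%). The 14 promoter heights were identical with the stricter list and with 2 kb. Both settings picked the same heights, so they say little of stability. With the 5′ end only, 1 of 12 moved by more than the SD of the 2 libraries. It was Slc26a1 in replicate 2, from 2.996 to 2.21, where the SD was 0.613. The lower value still lay between the heights of the 2 libraries, 2.13 and 2.996. The 14 locus peak counts were less stable: 5 moved by over 1.5 times with the stricter list, 6 with the upper 50%, 6 more than 1 kb from TSSs, 4 with the gene body alone and 11 with 50 kb. Of the 14 footprint counts, 8 moved with the gene body alone, 11 with 50 kb and 0 when restricted to peaks. No paired analysis was possible because the libraries form 1 group. With unknown depth and 2 libraries, a site absent from 1 list may be below its detection limit.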

Other observations

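An intron site of Slc13a2 13.1 kb from the TSS (chr11:78408901-78409240) had a low false discovery rate for its height. In replicate 1 its height was 1.29 and its lowest per-base false discovery rate 1.46e-43, while the leading intron site of the same gene, at 4.90, had 3.35e-18. In replicate 2 the same site had a height of 1.40 and a lowest rate of 5.77e-09.

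The locus of Slc26a6 is 1 of 156 protein-coding loci with an assembly gap, and 18 of them hold at least 50 kb of gap.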
